A study of Mus musculus with 5 samples.

Results

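The genes described here encode enzymes that remove superoxide and peroxides, together with thioredoxin and its binding partner Txnip. The 10 genes were chosen by name, not by a rule on their values: Gpx1, Gpx4, Prdx1, Prdx2, Prdx6, Sod1, Sod2, Cat, Txn1 and Txnip. Earlier results of these data were known when the choice was made. Of the 10 genes, 9 are among the 11643 genes of the deposited table and all 9 passed the filter on low values (10570 genes did). Prdx6 was not analysed here. The libraries were made from haematopoietic stem cells (HSCs) sorted from C57BL/6 bone marrow by surface markers: no lineage marker and no CD48, but c-Kit, Sca-1 and CD150. Control mice gave 3 libraries, and mice labelled Tle1/3/4-deficient gave 2. In the deficient mice the floxed alleles of Tle1, Tle3 and Tle4, which encode transcriptional co-repressors, were targeted with Vav-Cre, a Cre recombinase driven in all blood cells by the Vav promoter. The labels give no age and no genotype of the controls beyond "control". Control sample names begin with VavC, but whether the controls carried Vav-Cre is not stated. Nor do the labels state that each replicate is a different animal. The p-values thus cover the spread between libraries, which may be technical. Values are FPKM (fragments scaled to transcript length and library size), which allow levels to be compared between genes.

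Superoxide dismutases turn superoxide into hydrogen peroxide, Sod1 in the cytosol and Sod2 in mitochondria. Catalase (Cat), glutathione peroxidases (Gpx) and peroxiredoxins (Prdx) then remove the peroxide, and thioredoxin (Txn1) returns peroxiredoxins to their reduced form. Txnip binds reduced thioredoxin and also lowers glucose uptake by drawing glucose transporters into the cell. HSCs are kept in a state of low oxidant load, and loss of their antioxidant control is known to impair their quiescence and self-renewal.

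Gpx1 and Gpx4 are selenoproteins, whose messages read a UGA codon as selenocysteine at the catalytic site. The coding strand around that codon, taken from GENCODE M21 transcripts with 21 bases on each side and the codon in capitals, is shown because it sets these 2 genes apart from the other members.
Gpx1: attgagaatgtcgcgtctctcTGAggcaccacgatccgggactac
Gpx4: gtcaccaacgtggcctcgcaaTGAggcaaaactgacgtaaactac
The Txnip promoter is known for a carbohydrate response element, the site through which the glucose-sensing factor MondoA (Mlxip) with its partner Mlx is known to act. In RefSeq promoters of build GRCm38.p6, which is not the mm9 build of the table, 9 of the 10 genes had an entry. The stretch from 170 to 51 bases before the Txnip start (chr3:96557787-96557906, plus strand) is shown because Txnip was the gene whose groups separated. Capitals mark the element and the CCAAT boxes on either strand.
Txnip: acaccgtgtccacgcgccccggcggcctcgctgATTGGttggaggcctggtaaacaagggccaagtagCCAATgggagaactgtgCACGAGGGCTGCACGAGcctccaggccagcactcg
The element was searched as 2 copies of CACGNG with 5 bases between them, on both strands of the 250 bases before each start. It was found in 15 of 32851 promoters (0.0457%), and among the members in Txnip only. CCAAT, which does not overlap it there, is common, at 33.8% of promoters. The forkhead core TGTTTAC, present in 3.17% of promoters, also lies once in the Txnip stretch, on the reverse strand from 121 to 115 bases before the start. The antioxidant response element core TGACNNNGC, the motif bound by NRF2, is held by 10.2% of promoters on either strand and by 2 of the 9 members with an entry. Those matches, in capitals with 15 bases on each side, lie at chr4:116685451-116685489 and chr16:90220691-90220729, both on the plus strand.
Prdx1: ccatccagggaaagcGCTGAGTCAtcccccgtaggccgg
Sod1: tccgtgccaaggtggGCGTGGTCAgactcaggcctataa
A match of letters is a description and does not show that a factor binds.

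Several facts of the libraries bear on these genes. Tle3 went against the label, with 4.35 ± 1.65 FPKM (SD, n = 3) for the controls, 32.3 and 31.6 FPKM for the libraries labelled deficient. Tle4 was at 5.67, 0.0129 and 5.29 FPKM among controls against 0.353 and 0.203 FPKM, under 2 of the 3 controls. Tle1 overlapped between groups, at 1.83, 0.811 and 3.33 FPKM against 2.84 and 4.37 FPKM. Each value covers a whole gene, and which exons were floxed is unknown here, so the deletion is not checked by these levels and directions below rest on the labels. Whole-read totals are unknown. From the commonest ratio of values under 0.3 FPKM, which held for at most 34.0% of low genes, the deepest library was 1.46 times the shallowest. Exact values of 0 occur for genes that other libraries show at high levels, but all 9 members were above 0 in every library.

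Most of these messages were abundant, and 7 of the 9 lay in the top 4.05% of genes by mean level. Gpx1 stood highest, the controls averaging 1319 ± 116 FPKM (SD, n = 3) and ranked 68 of 11643 genes by its mean over the 5 libraries. Sod1 (588 ± 135 FPKM), Gpx4 (585 ± 24.01), Prdx1 (483 ± 80.6), Txn1 (412 ± 60.5), Prdx2 (349 ± 54.4) and Txnip (228 ± 28.4) followed. Cat (71.9 ± 65.3 FPKM) and Sod2 (31.5 ± 3.28) were lowest. The control ranges of Sod1 and Gpx4, of Prdx1 and Txn1, of Txn1 and Prdx2, and of Cat and Sod2 overlapped. Among genes not adjacent in this order, Sod1 also overlapped with Prdx1 and Txn1, and Prdx1 with Prdx2. The order within each of these pairs is not resolved. Gpx1 was 2.24 times Sod1, and Txnip 3.17 times Cat, with no overlap in the controls. The cytosolic dismutase thus exceeded the mitochondrial one in every library, and those 7 members had a mean of at least 100 FPKM.

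**Figure D1:**
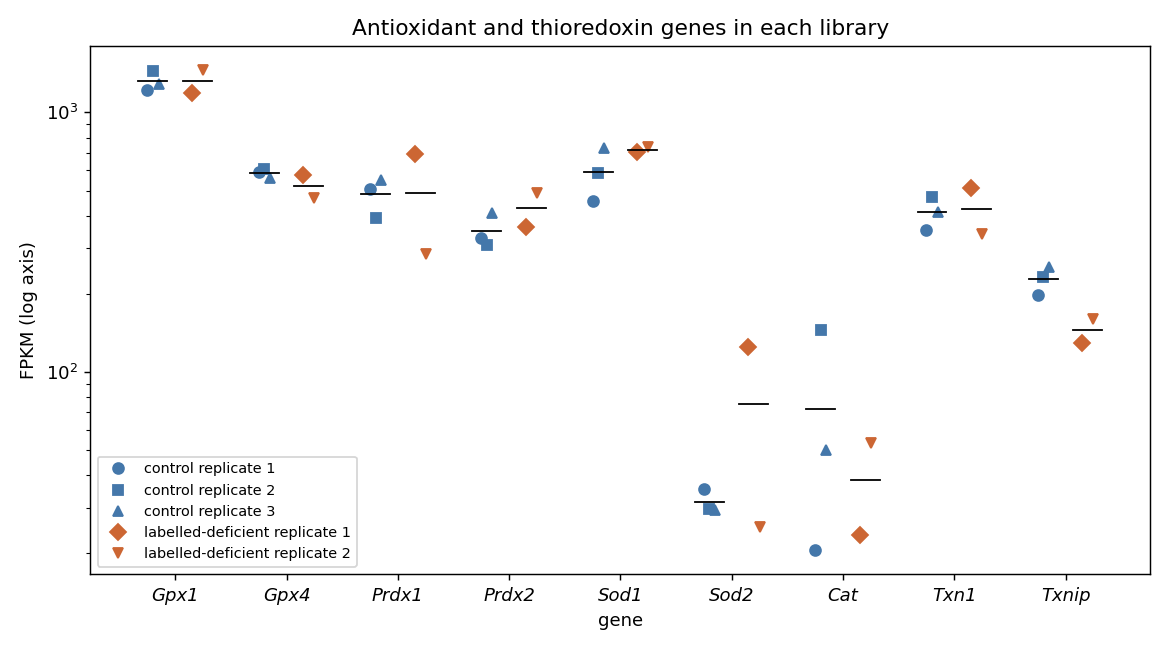
FPKM (log axis) of the 9 genes in each library, with circles, squares and upward triangles for control replicates 1 to 3, diamonds and downward triangles for labelled-deficient replicates 1 and 2, and bars for group means. Both labelled-deficient points lie below all controls for Txnip only, while 1 library stands apart for Sod2 (125 FPKM) and for Cat (145 FPKM).

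No member passed the test between groups (limma, Benjamini-Hochberg over all genes tested, 0 of 9, against 0.0189% of all genes tested, 0.00946% in each direction). At an unadjusted p under 0.05 there was 1 of 9, Txnip, against 8.45% of all genes. The members' log2 fold changes (log2(FPKM + 1), labelled-deficient minus control) ran from -0.65 to 0.83 with a median of 0.0024, beside a median of -0.10 for all genes tested. Among them 5 were positive and 4 negative. In bulk libraries, fewer cells of a type and less RNA per cell cannot be told apart. In data simulated for this comparison the test called 2.99% of genes given a log2 change of 1 and 41.8% of genes given 2. Of genes given 4 it called 83.3%. Even there, a change of 1, larger than that of any member, was seldom called. The simulation gave 92 calls, 7 of them false, where the deposited data gave 2. Of the 16 granulocyte-monocyte markers described below, 0 were called, at a median log2 fold change of 4.08. The simulated shares are thus not read as the power of the test in these libraries. A scaling by median of ratios moved the median of all genes by 0.12 upward, and changes smaller than that have no settled sign.

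**Figure D2:**
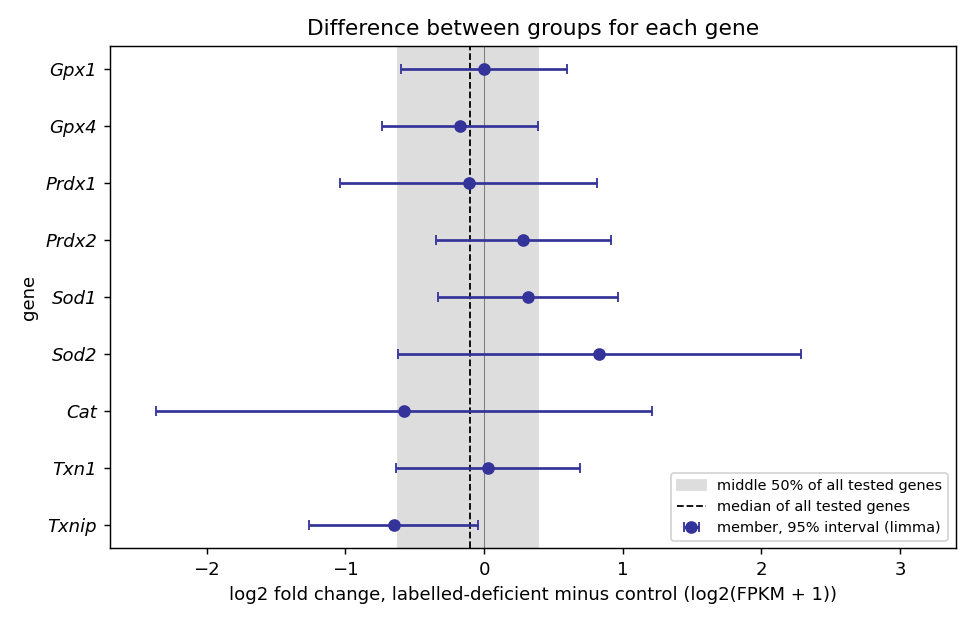
Log2 fold change of each gene with its 95% interval from limma. The grey band is the middle 50% of all tested genes and the dashed line their median (-0.10). Only the Txnip interval (-1.26 to -0.044) excludes 0 before adjustment, and the Cat and Sod2 intervals are the widest.

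Txnip was at 198, 231 and 254 FPKM in control replicates 1, 2 and 3 and at 129 and 160 FPKM in labelled-deficient replicates 1 and 2. Both labelled-deficient libraries lay below every control, and Txnip was the only member of which this held (1 of 9, where 15.9% of all genes tested lay below every control, 10.2% above and 26.1% on either side). The control mean was 1.57 times the labelled-deficient mean, with a log2 fold change of -0.65 (SE 0.26, limma adjusted p = 0.559). With the groups separate, leaving out 1 library could not change the sign of this fold change, which then ran from -0.81 to -0.50. The fold change was also negative under both other scalings. The number of members below every control was 2 with quantile normalization or without control replicate 3 or labelled-deficient replicate 2, and 5 without labelled-deficient replicate 1, which leaves replicate 2 alone. An annotated gene on the opposite strand, Gm15441, overlaps Txnip exons in GENCODE M21. Whether the libraries kept strand is not given in the sources used here, so reads of the pair could not be told apart.

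Genes that act with Txnip were looked at as a list of 12, of which 11 were tested. None was called, 3 lay below every control and 0 above (15.9% and 10.2% of all genes), and the median log2 fold change was -0.36. Slc2a1, the glucose transporter GLUT1 that Txnip removes from the cell surface, was at 36.1, 28.9 and 33.8 FPKM among controls, against 15.8 and 10.1 FPKM in the labelled-deficient libraries (log2 fold change -1.31, SE 0.41, limma adjusted p = 0.465). Both values were under every control, by more than the spread within either group. Arrdc4, an arrestin-domain relative of Txnip, was at 50.3, 41.5 and 29.5 FPKM against 16.3 and 26.5 FPKM (limma adjusted p = 0.618). Mlxip, which encodes the factor that reads the element shown above, was at 142, 50.7 and 56.8 FPKM against 45.3 and 45.05 FPKM (limma adjusted p = 0.709). Its separation from the lower 2 controls was small. Arrdc1, another relative and the most abundant on the list, overlapped between groups at 99.9 ± 15.7 against 109 ± 2.52 FPKM. Mlx and Arrb2 are listed at 0 in 1 and 4 libraries, which can be failed estimates, and are not read.

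**Figure D3:**
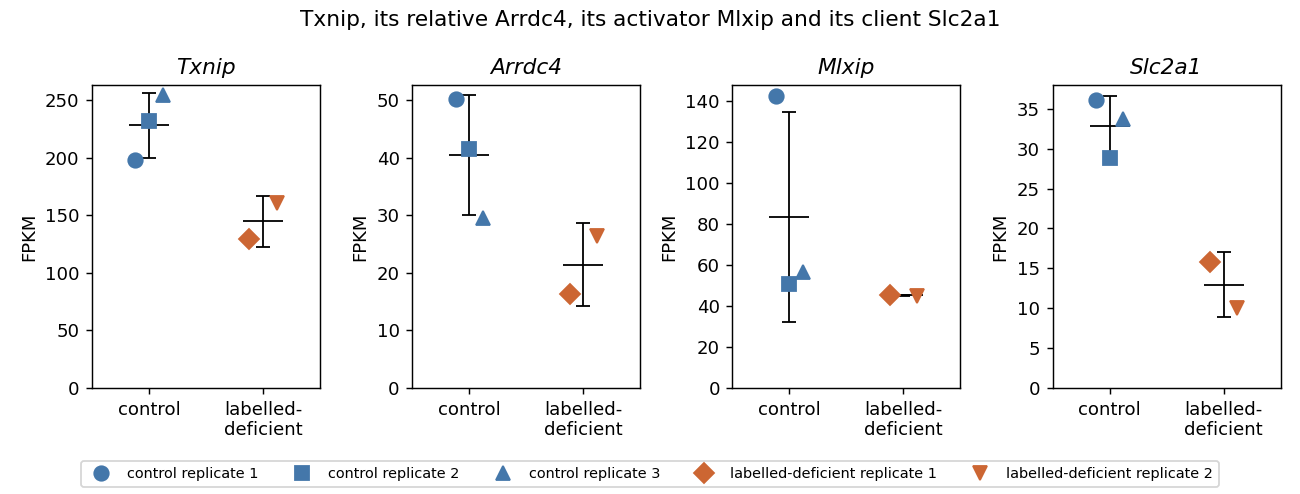
FPKM of Txnip, Arrdc4, Mlxip and Slc2a1 in each library (linear axes from 0), with symbols for libraries, horizontal bars for group means and vertical bars for the SD. In all 4 panels both labelled-deficient points lie under the lowest control, by little for Arrdc4 (26.5 against 29.5 FPKM) and Mlxip (45.3 against 50.7 FPKM). The panels show Txnip and the 3 of 11 tested genes of its list that lay below every control. The 8 genes whose groups overlapped are not drawn, so the panels agree by selection.

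By Euclidean distance between deviations from each gene's mean over the 5 libraries, on the log2(FPKM + 1) scale, the 3 genes nearest to Txnip among 93 tested antioxidant and related genes were Sephs1 (0.38), Sqstm1 (0.46) and Trnau1ap (0.46). Sqstm1, an autophagy receptor that binds Keap1, was at 130 ± 17.6 FPKM among controls and 85.9 ± 19.1 in the labelled-deficient libraries. Sephs1 was at 15.5 ± 1.48 against 9.93 ± 1.40 FPKM and Trnau1ap, a partner of the selenocysteine tRNA, at 56.0 ± 6.61 against 44.3 ± 0.144 FPKM (SD, n = 3 and 2). The 3 genes were picked for likeness over the same 5 libraries, so their lower labelled-deficient levels follow from the choice.

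Sod2 was high in a single library. It was at 35.3, 29.7 and 29.5 FPKM in the controls, at 125 FPKM in labelled-deficient replicate 1 and at 25.3 FPKM in replicate 2. The labelled-deficient libraries therefore stood on opposite sides of the controls, 4.95-fold apart. The log2 fold change of 0.83 (SE 0.62, limma adjusted p = 0.731) became -0.30 without labelled-deficient replicate 1 and 1.96 without replicate 2. For 22 interferon-stimulated genes, a list added after the Sod2 values were seen, the summed level was also highest in that library, at 1741 to 1874 FPKM in controls, 2975 in labelled-deficient replicate 1 and 1349 in replicate 2. This did not hold gene by gene: Ifit2 (9.02 FPKM in replicate 1), for instance, was below every control there, and Psmb9 (353 FPKM) was below 2 of the 3. Between groups, 2 of the 22 lay above and 1 below every control, where the shares over all genes tested were 10.2% and 15.9%. Their part in the Sod2 value was not tested. Sod1 was at 456, 583 and 726 FPKM against 706 and 733 FPKM, so that its groups overlapped (log2 fold change 0.32, SE 0.28, limma adjusted p = 0.767).

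Catalase varied most among the controls. Cat was at 20.6, 145 and 49.9 FPKM in control replicates 1, 2 and 3, a 7.07-fold range, and at 23.6 and 53.1 FPKM in the labelled-deficient libraries, both inside that range. Its SD on the log2 scale among controls was 1.38, where the median over all genes tested was 0.53. The log2 fold change of -0.58 (SE 0.77, limma adjusted p = 0.858) became 0.14 without control replicate 2. Red cells are rich in catalase. Erythroid markers gave sums of 1094, 1109 and 832 FPKM for control replicates 1, 2 and 3, nearly all of it Car2. Of the scarcer ones, chosen after their values were seen, Car1 was at 0.134, 5.68 and 3.68 FPKM, Rhag at 0, 3.95 and 1.95 and Slc4a1 at 0.0149, 1.96 and 1.02, in the same order of controls as Cat. In labelled-deficient replicate 2 Car1 reached 299 FPKM while Cat stayed at 53.1 FPKM. Their part in the Cat values was not tested.

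The glutathione peroxidases varied least among the controls. Gpx1, which reduces hydrogen peroxide in the cytosol, was at 1221, 1446 and 1288 FPKM among controls and 1191 and 1457 FPKM in the labelled-deficient libraries, which lay just outside the control range on either side. Its log2 fold change was 0.0024 with a 95% interval from -0.60 to 0.60 (limma), so a change of up to that size is not excluded. Gpx4, which reduces lipid peroxides in membranes, was at 587, 607 and 560 FPKM against 572 and 468 FPKM. Replicate 2 alone lay under the controls (log2 fold change -0.17, SE 0.24, limma adjusted p = 0.863). Control SDs of log2 were 0.12 for Gpx1 and 0.059 for Gpx4, below the median of 0.25 for the 1037 genes tested with a mean of at least 100 FPKM.

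Peroxiredoxin 1 and thioredoxin divided the labelled-deficient libraries in the same direction. Prdx1, the main cytosolic peroxiredoxin, was at 508, 394 and 549 FPKM in controls, 692 FPKM in labelled-deficient replicate 1 and 284 FPKM in replicate 2, above and below every control. Txn1, which recycles it, was at 351, 472 and 415 FPKM among controls and 511 and 341 FPKM in the same order. The labelled-deficient libraries thus differed 2.44-fold for Prdx1 and 1.497-fold for Txn1, while their means were close to those of the controls (log2 fold changes -0.11 and 0.029, limma adjusted p = 0.953 and 0.983). Neither sign was stable: Prdx1 became 0.016 after median-of-ratios scaling and Txn1 -0.056 after quantile normalization. Prdx2, the peroxiredoxin abundant in red cells, lay the other way, at 328, 309 and 411 FPKM among controls and 362 and 490.3 FPKM in labelled-deficient replicates 1 and 2 (log2 fold change 0.28, SE 0.27, limma adjusted p = 0.793). Prdx2 exons overlap those of Junb and Rnaseh2a on the opposite strand. Junb was at 50.8, 45.6 and 46.9 FPKM among controls and 94.7 and 153 FPKM in the labelled-deficient libraries, highest in the library where Prdx2 was highest. Rnaseh2a, which encodes a ribonuclease H2 subunit, was at 21.2, 81.3 and 38.7 FPKM against 118 and 34.3 FPKM, and so was higher in the labelled-deficient library where Prdx2 was lower. The part of either in the Prdx2 values was not tested. Related copies are annotated for Gpx4 (Gpx4-ps2) and Prdx2 (Prdx2-rs3), and reads could be shared with them.

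**Figure D4:**
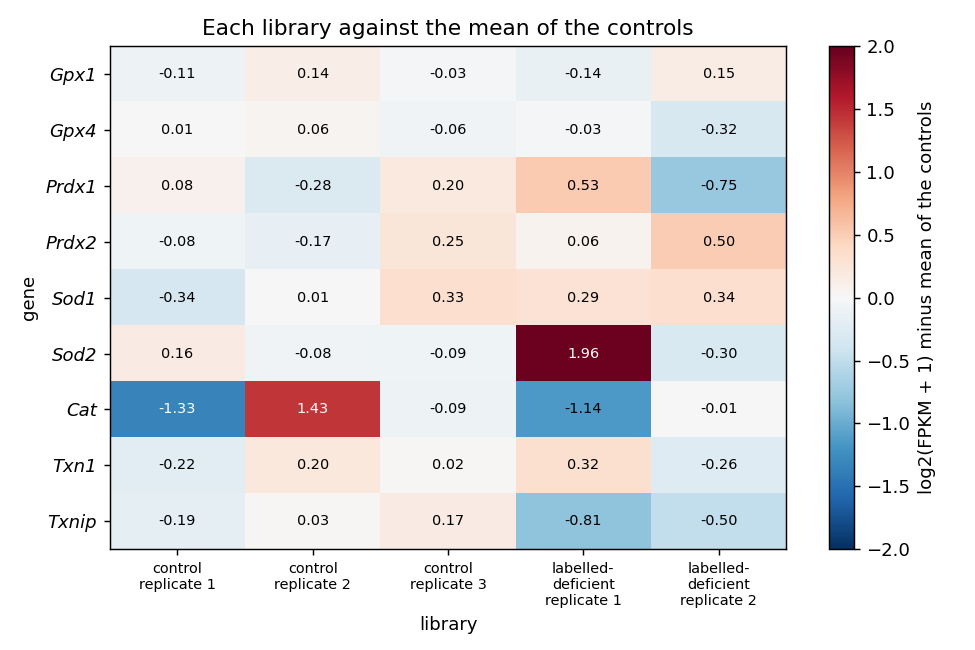
Log2(FPKM + 1) of each gene in each library minus the mean of the 3 controls, with red for higher and blue for lower values. The Txnip row is blue in both labelled-deficient columns (-0.81 and -0.50), whereas Gpx1, Prdx1, Sod2 and Txn1 take opposite signs in those columns.

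Across the 9 members, 4 lay within the control range in labelled-deficient replicate 1 and 1 in replicate 2. The share over all genes was not computed for single libraries, so these counts are not read as a trait of the members. Markers of other blood cells differed in the same libraries. The 16 granulocyte-monocyte markers in the table summed to 1007 to 3469 FPKM among controls and 11950.3 and 71641 FPKM in labelled-deficient replicates 1 and 2, with 12 of 16 above every control (10.2% of all genes tested lay above and 15.9% below) and none at 0. S100a8 and S100a9 were the most abundant of them. Megakaryocyte-platelet markers, led by Pf4 and Cd9, summed to 896 to 1745 FPKM against 9190.1 and 4415 FPKM, with 8 of 15 above every control and 1 below, and 2 at 0 in some library. Erythroid markers, led by Car2 and Car1, summed to 832 to 1109 FPKM against 1013 and 1689 FPKM, with 4 of 10 above every control. Alas2, Ermap and Rhag were among those at 0 in at least 1 library. The 5 lymphoid markers (Nkg7 and Cd79b highest, with Cd79a and Vpreb1 among those at 0 in at least 1 library) summed to 84.0 to 154 FPKM against 367 and 349 FPKM, with 2 of 5 above every control. The 4 mast cell and basophil markers, Gzmb and Prss34 among them and all at 0 in some library, summed to 0 to 6.29 FPKM against 38.7 and 31.4 FPKM, with 2 of 4 above every control. The 12 HSC markers, Gata2 among them, were all present and summed to 987 to 1048 FPKM among controls and 889 and 668 FPKM, with 2 of 12 above and 4 below every control. The part of these cells in the members' values was not tested.

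The wider antioxidant system gave the setting for these genes, and no gene of any of its lists was called. Of 11 other peroxide and superoxide enzymes tested, 1 lay above and 2 below every control (10.2% and 15.9% of all genes), with a median log2 fold change of -0.067. Park7, a redox-sensitive chaperone, divided the labelled-deficient libraries as Prdx1 did, at 378, 552 and 443 FPKM among controls and 554 and 285 FPKM. Prdx4, the peroxiredoxin of the endoplasmic reticulum, was at 134 ± 23.1 against 127 ± 9.80 FPKM. Sesn1, a sestrin induced by p53 and FOXO factors, was at 130.4, 100.5 and 103 FPKM against 85.1 and 49.5 FPKM. Gpx8 was at 0.0810, 0 and 0.0549 FPKM against 6.22 and 6.92 FPKM, and no fold is given.

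Among 13 tested genes of the thioredoxin and glutaredoxin system, 2 lay above and 1 below every control (10.2% and 15.9% of all genes), with a median log2 fold change of -0.067. Glrx5, a mitochondrial glutaredoxin needed for iron-sulphur clusters and haem, was at 127, 120.3 and 139 FPKM among controls and 185 and 219.7 FPKM in the labelled-deficient libraries (log2 fold change 0.64, SE 0.25, limma adjusted p = 0.55). Txn2, the mitochondrial thioredoxin, was at 151 ± 16.2 against 126 ± 16.2 FPKM, and Msrb1, a selenoprotein that repairs oxidised methionine, at 8.65 ± 4.44 against 24.7 ± 13.6 FPKM (SD, n = 3 and 2).

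Of 18 glutathione genes tested, 13 had a positive and 5 a negative log2 fold change, where 4682 of all 10570 genes tested were positive. There were 3 above and 3 below every control (10.2% and 15.9% of all genes), and 5 had an unadjusted p under 0.05 (8.45% of all genes), with a median of 0.37. G6pdx, which opens the NADPH-producing pentose phosphate pathway, was at 20.8, 17.6 and 27.1 FPKM among controls and 35.3 and 139 FPKM in labelled-deficient replicates 1 and 2. Replicate 2, in which granulocyte-monocyte markers were highest, thus gave most of that difference (limma adjusted p = 0.505). Idh2, a mitochondrial source of NADPH, lay the other way, at 299, 216 and 260.4 FPKM against 148 and 126 FPKM (log2 fold change -0.90, SE 0.26, limma adjusted p = 0.439). Mgst2 was at 4.26 ± 3.69 against 19.4 ± 15.5 FPKM, and Gstp1, a glutathione transferase, at 327 ± 144 against 254 ± 96.5 FPKM.

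**Figure D5:**
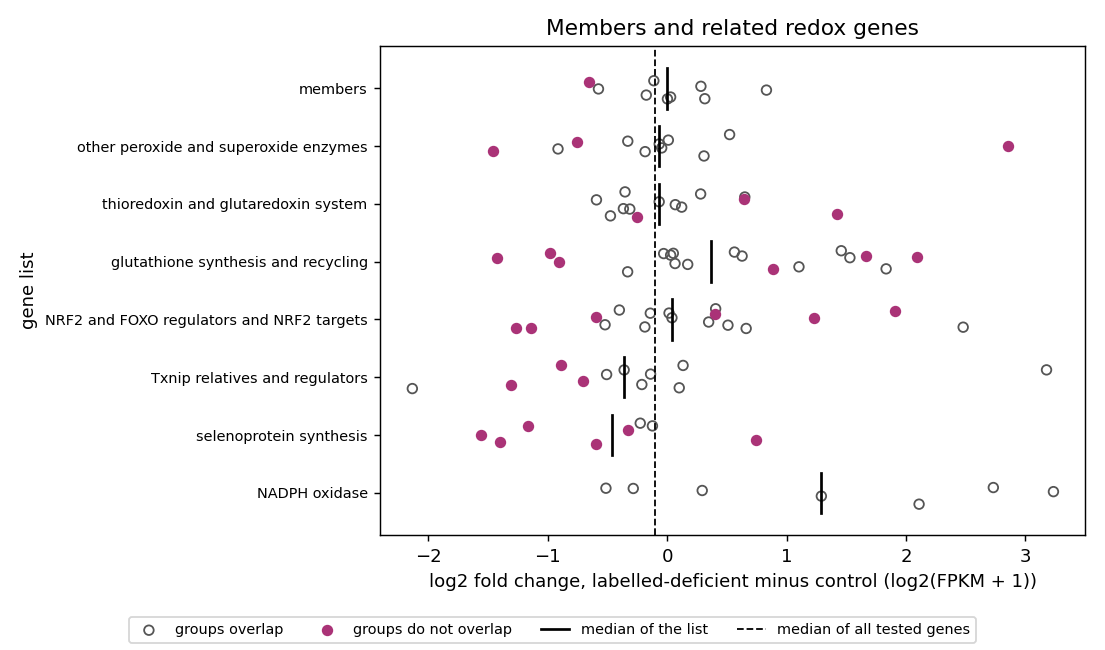
Log2 fold change of each tested gene by list, with filled points where both labelled-deficient libraries lie outside the control range on the same side, short bars for list medians and a dashed line for the median of all genes tested. In the selenoprotein synthesis list 5 of 8 points are filled below 0, and in the NADPH oxidase list none is filled.

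A list of 8 genes was linked to selenocysteine, the residue on which Gpx1 and Gpx4 depend. Not all of them make or insert the residue (Scly does not). Of the 8, 5 lay below every control and 1 above (15.9% and 10.2% of all genes), with a median log2 fold change of -0.46. Sepsecs, the enzyme that forms selenocysteine on its tRNA, was at 31.6, 27.0 and 11.3 FPKM among controls and 10.4 and 4.06 FPKM (limma adjusted p = 0.578), and control replicate 3 was close to the higher of these. Scly, which recovers selenium from selenocysteine, was at 8.35, 15.8 and 14.6 FPKM against 4.05 and 4.13 FPKM (limma adjusted p = 0.587). Sephs2, the selenophosphate synthetase, was above every control at 42.9 ± 16.9 against 68.0 ± 5.16 FPKM. Eefsec ranged from 7.31 to 127 FPKM among the controls.

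Regulators and targets of NRF2 and FOXO factors gave 10 positive and 7 negative log2 fold changes, with 3 of 17 above and 3 below every control (10.2% and 15.9% of all genes) and a median of 0.040. The ferritin subunits Ftl1 (2326 ± 294 against 2414 ± 584 FPKM) and Fth1 (1689 ± 110 against 1736 ± 465 FPKM) were the most abundant. Mafg, a small MAF partner of NRF2, was at 9.24, 13.1 and 18.7 FPKM against 34.2 and 30.3 FPKM, and Atm, a kinase of the DNA damage response, at 14.9, 20.7 and 13.1 FPKM against 5.09 and 7.20 FPKM (limma adjusted p = 0.546 and 0.587). For the NADPH oxidase that makes superoxide in phagocytes, all 7 genes overlapped between groups, with a median log2 fold change of 1.29. Cybb, its catalytic subunit, was at 0.0570, 5.88 and 2.87 FPKM among controls and 5.19 and 65.0 FPKM in labelled-deficient replicates 1 and 2. The cytosolic subunits Ncf1 (5.97 and 97.1 FPKM) and Ncf4 (17.2 and 144 FPKM) likewise lay above every control in replicate 2 and within the control range in replicate 1. Granulocyte-monocyte markers were highest in replicate 2 as well, and their part in these values was not tested. Cyba, a membrane subunit, was at 341, 215 and 0 FPKM among controls and 217 and 715 FPKM, and the small GTPase Rac1 was at 212, 177 and 149 FPKM against 203 and 233 FPKM.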

How the data were processed

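RNA-seq libraries of sorted mouse HSCs, 3 control and 2 labelled Tle1/3/4-deficient, were grouped by sample title. The authors deposited FPKM per gene symbol. Per the submitters' processing notes the build was mm9 and TopHat and edgeR were used, with no version or role; annotation and filters: not given in the sources used here. Since FPKM is relative to the library, very abundant genes in 1 library depress its other values.

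A mean of 1 FPKM or more over the libraries was required of a gene. The test was limma 3.58.1 (R 4.3.3; lmFit and eBayes, trend on) applied to log2(FPKM + 1), two-sided, with group alone in the model. Adjustment was by Benjamini and Hochberg over 10570 genes at a threshold of 0.05. Fold changes on this scale understate those of low genes. The fit was tested on simulated data (10373 genes). The members and all lists were chosen with earlier results of these data known. The text names all members, the 2 most abundant genes of each list, up to 2 with the largest change among those with separate groups and at least 5 FPKM in the higher group, and the 3 nearest to Txnip; some marker genes are not reported here. Genes named because they overlap a member, Rhag, Slc4a1, Ifit2, Psmb9, Cybb, Ncf1 and Ncf4 were chosen after their values were seen. Annotation overlaps came from GENCODE M21 and promoters from RefSeq, both on a later build, by symbol. Python 3.11.15 was used for tables and plots. Alternatives covered pseudocount, filter, scaling, variance model, weights, replicate block and leaving out each library.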

Additional observations from a re-analysis of the deposited data

How the results depend on the processing

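No member was called under any of the 15 alternatives. The Txnip groups did not overlap, so leaving out 1 library could not change its sign. The other filters and variance models cannot alter a member's fold change, so agreement of sign under them was fixed in advance. The replicate block gave the members the same fold changes as leaving out control replicate 3 and is no separate check. With that limit, Txnip, Gpx4, Prdx2 and Sod1 kept their direction in all 15, with Txnip between -0.81 and -0.50 (limma adjusted p from 0.498 to 0.805). The others changed sign when 1 library was left out, Gpx1 ranging from -0.14 (without labelled-deficient replicate 2) to 0.15, Prdx1 from -0.75 to 0.53 (without that library), Sod2 from -0.30 (without labelled-deficient replicate 1) to 1.96, Cat from -1.24 to 0.14 (without control replicate 2) and Txn1 from -0.26 (without labelled-deficient replicate 1) to 0.32. With a single labelled-deficient library, that library is assumed to vary like the controls. Prdx1 was 0.016 after median-of-ratios scaling and Txn1 -0.056 after quantile normalization.

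The replicate block turned Gpx1 to -0.013 and called 22 genes in place of 2, with no member among them. Same-numbered libraries shared little (correlation of deviations from the group means 0.035 and 0.0069). With 2 labelled-deficient libraries, their deviations mirror each other, so this cannot decide whether the numbers pair the samples. Over all genes, 0 were called with a pseudocount of 0.1, no filter or array weights, 1 with eBayes without trend, 4 with a pseudocount of 5 or median-of-ratios scaling, 5 with robust eBayes, and 0 to 5 without each library. The cause was not tested. Depth is unknown, so no counting error can be given.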
